A study of Gallus gallus with 8 samples.

Results

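Mesoderm grafted from a younger donor into an older chick wing was compared with wing tissue of the host's age, in 5 of the 8 RNA sequencing libraries of the series. The libraries were chosen by their titles, 2 as HH24g (the grafts) and 3 as HH27. HH stands for the Hamburger Hamilton stages of the chick embryo. HH24g came from embryos with the CMV-GFP transgene: a strip of 150 µm of distal wing mesoderm was taken at HH20, freed of its epithelium, cut up and slipped beneath the apical ectodermal ridge of a wild type wing at HH24, where it stayed for 24 h. By then the host wing had reached HH27. HH27 was ungrafted distal tissue of wild type embryos, which the study took from the other wing of the hosts. Each library pools pieces from several embryos. Both groups are labelled as mesenchyme and no other agent or allele is named for either. The 3 remaining libraries, HH24, are ungrafted wild type tissue of the age that the grafts had reached, and serve here for their levels and for the estimate of the spread. Grafts and HH27 differ at once in age, in the transgenic donor line and in the operation, which cannot be told apart. The donor line drives GFP in all cells, but GFP was not analysed here, so it gives no check of the labels.

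The distal mesoderm under the apical ectodermal ridge, a thickened epithelium at the wing tip, supplies the cells of the wing from shoulder to digits in sequence. Fgf proteins from the ridge keep these cells growing, while Hox genes at the 5′ end of the HoxA and HoxD clusters come on in order and mark the change from upper and lower wing to digits. Bmp signals, which restrain growth and promote cartilage, and retinoic acid, which favours proximal identity, act on the same cells.

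Levels are given as CPM, counts per 1000000 reads assigned to genes after scaling by the trimmed mean of M-values, in the order of replicates 1 to 3 for HH27 and 1 and 2 for HH24g. A gene was called when limma gave it a Benjamini-Hochberg adjusted p under 0.05 and an absolute log2 fold change over 1; fold changes are HH24g against HH27 with their SE. The effective library sizes were 1029752 to 3849969 reads in HH27 and 2003500 and 3273297 reads in HH24g. HH24 replicate 2 had an effective size of only 128271 reads, so HH24 levels below are those of replicates 1 and 3 unless a mean over all 3 is named. They are given for some genes only, and other genes may also differ between HH24 and the grafts. Each call was run again under 17 alternatives: other tests, filters and scalings, and each of the 8 libraries left out in turn. Losses named for single genes below are mostly those without 1 library. A call kept without any 1 library can be lost under another test or filter. Where a graft library is left out, the other is taken to vary like the remaining groups.

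Of 9062 genes tested, 155 (1.71%) were called, 92 (1.02%) higher and 63 (0.695%) lower in the grafts than in HH27, and the median log2 fold change over all genes tested was -0.01. Counts within the gene lists below stand beside these shares, and no list was tested as a set. The libraries of the groups did not overlap for 154 of the called genes (MAP3K14 was the exception), nor for 32.7% of all genes tested. More than 4-fold changes were seen in 36 called genes, 25 of them higher in the grafts. Of the called genes, 40 (35 higher and 5 lower) were not tested when at least 10 counts were required in every HH24g and HH27 library. Among these 40 are HGF, CXCL12, CXCR4, FGF18, DNER, GFRA1, NGFR, EPHA5, GREM1, HOXD8, SLC6A11 and SLC14A2. Genes low in HH27 can pass the usual filter through the grafts, where they are high. Counts of higher genes within a list are therefore not read as results about the list. In all 17 alternatives 42 calls were kept, 22 of higher and 20 of lower genes, and 54 were kept whichever library was left out. Without HH24g replicate 2, the count fell to 94 (65 higher and 29 lower), and without HH24g replicate 1 to 122 (82 and 40).

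**Figure D1:**
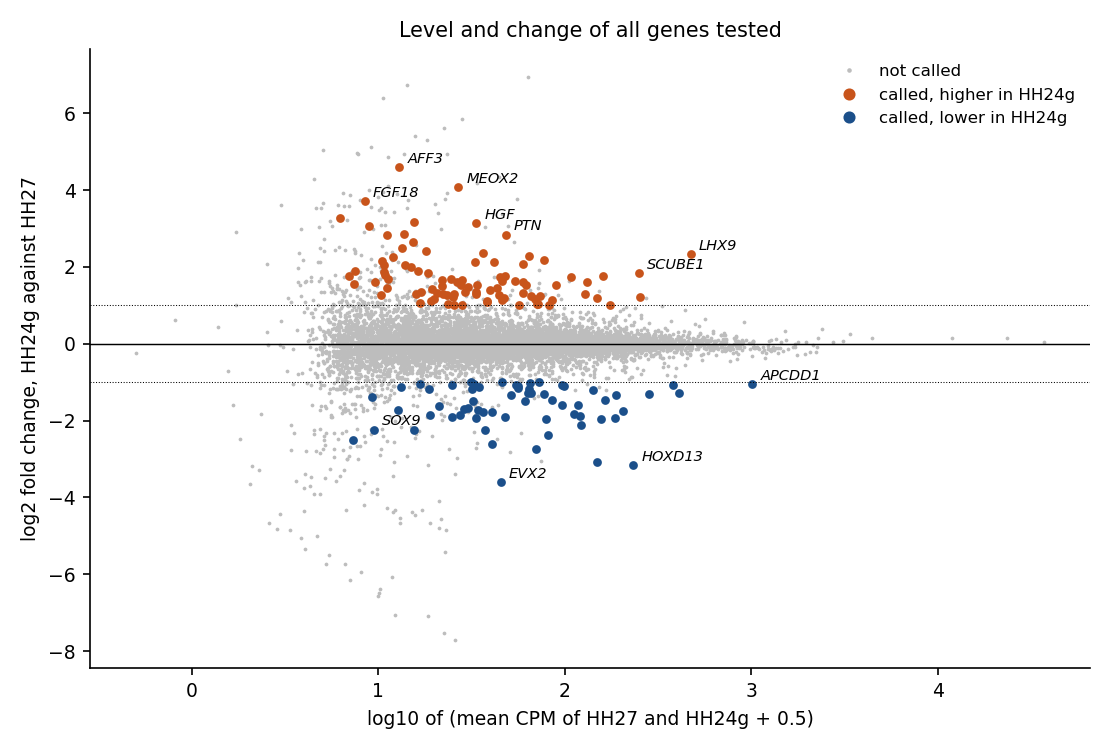
Each point is 1 of 9062 genes, with its mean level in HH27 and HH24g (log10 of CPM + 0.5) on the horizontal axis and its log2 fold change of HH24g against HH27 on the vertical axis. Orange points are the 92 genes called higher and blue points the 63 called lower; dotted lines mark the fold limit of 1, and many low genes past it were not called.

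The 155 genes were sorted by what they are known to do, a grouping made after their values were seen and given without a test. Transcription factors and their cofactors formed the largest group, with 15 higher and 13 lower in the grafts. Receptors and other signal modulators at the cell surface came next, with 9 higher and 12 lower. Secreted signals and their secreted modulators numbered 12 higher and 5 lower, as did proteins of intracellular signalling and the cell cycle. Matrix proteins and secreted enzymes numbered 9 and 5, proteins of membrane traffic, cytoskeleton and cilia 10 and 4, and adhesion proteins 7 and 4. Metabolic enzymes (6 and 5) and channels and transporters (4 and 3) were few. The 4 called RNA processing genes were lower and the 3 called genes of retinoid handling higher, while 8 genes were left without a group.

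**Figure D2:**
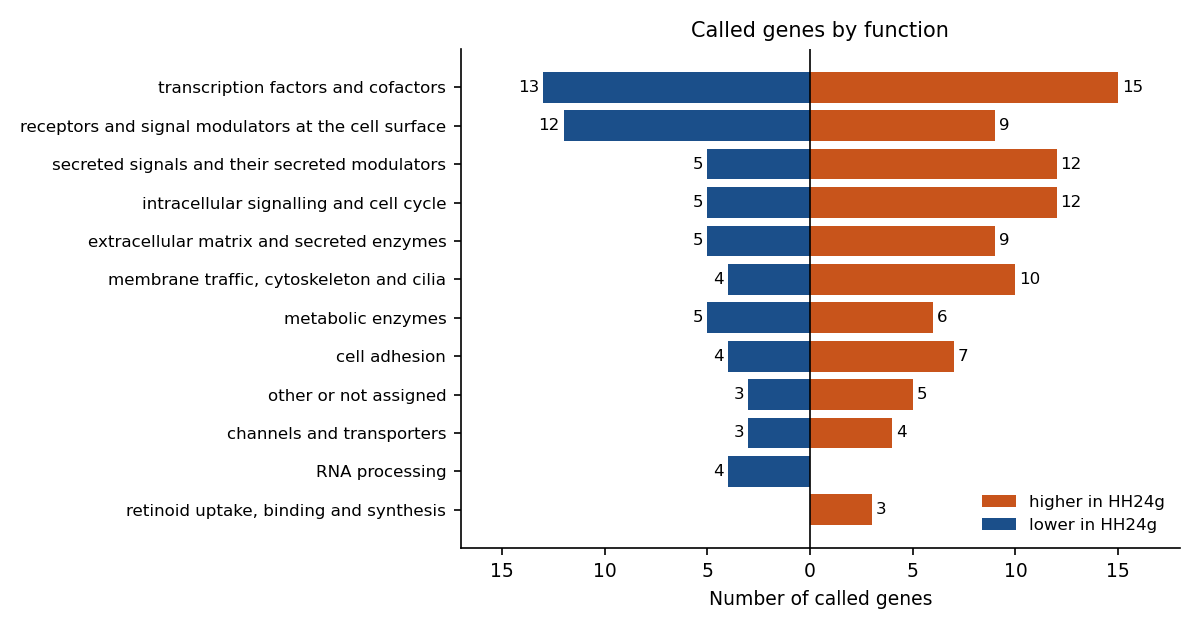
Called genes in each group of function, with the number higher in HH24g to the right (orange) and the number lower to the left (blue). Secreted signals numbered 12 higher and 5 lower and receptors 9 higher and 12 lower, beside 92 and 63 over all called genes. Genes low in HH27 can pass the filter through the grafts, so these splits are not read as results.

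Among the called genes the lowest log2 fold changes were those of EVX2 and HOXD13, at the 5′ end of the HoxD cluster, whose products pattern the digits. EVX2, a homeobox gene beside HOXD13, measured 87.4, 76.7 and 84.4 CPM in HH27 and 4.49 and 8.55 CPM in HH24g. HOXD13, required for normal digits in mouse and human, measured 391, 422 and 439 CPM in HH27 and 31.4 and 62.9 CPM in HH24g. HOXD12, its neighbour, measured 173, 221 and 195 CPM in HH27 and 51.4 and 40.3 CPM in HH24g. Every graft library was below every HH27 library for all 3 genes. Genes named for the size of their change had to meet this, and libraries did not overlap for 32.7% of all genes tested. The log2 fold changes of EVX2, HOXD13 and HOXD12 were -3.61 ± 0.40, adjusted p = 0.00263, -3.15 ± 0.37, adjusted p = 0.00324, and -2.10 ± 0.15, adjusted p = 0.00138. HOXA13, the remaining member of the list of autopod Hox genes (the autopod is the wrist and digits), was not called: it measured 28.4, 22.3 and 34 CPM in HH27 and 7.99 and 15.3 CPM in HH24g, without overlap (log2 fold change -1.31 ± 0.34, adjusted p = 0.0836). Thus 3 of 4 members (75%, against 1.71% of all genes tested) were called, all of them lower, and the list's median was -2.62. HOXD13 and HOXD12 kept their call in all 17 alternatives, and EVX2 lost it without HH24g replicate 2 (adjusted p = 0.051). In HH24 replicates 1 and 3 HOXD13 measured 146 and 50.9 CPM, HOXD12 104 and 97.8 CPM and EVX2 15 and 2.93 CPM. HOXD12 was thus lower in both grafts than in these HH24 libraries, whereas EVX2 was not. For HOXA13 the mean over all 3 HH24 libraries, with the shallow replicate 2, was 34.8 CPM. Its means in HH27 and HH24g were 28.2 and 11.6 CPM.

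Read along chromosome 7 in the gene order of RefSeq, the difference changed direction within the cluster. HOXD8, in the middle of the cluster, was higher in the grafts, at 23.5 and 20.8 CPM in HH24g and 3.83, 3.88 and 3.64 CPM in HH27 (log2 fold change 2.49 ± 0.27, adjusted p = 0.0024). HOXD3 and HOXD4, towards the 3′ end, had values above 0 without being called (1.14 ± 0.42 and 0.95 ± 0.33). HOXD11 lay between both sides, at 93.5, 90.3 and 76.4 CPM in HH27 and 53.4 and 46.7 CPM in HH24g, with an adjusted p under the threshold but a fold change under the limit (-0.78 ± 0.16, adjusted p = 0.0377). The mean of HOXD11 over all 3 HH24 libraries was 100.1 CPM, against 86.7 CPM in HH27 and 50.1 CPM in HH24g. HOXD12, HOXD13 and EVX2 followed with ever lower log2 fold changes. Beyond them LNPK, which shapes junctions of the endoplasmic reticulum, was also lower, at 180.5, 169 and 175 CPM in HH27 and 37.4 and 60.2 CPM in HH24g (log2 fold change -1.83 ± 0.17, adjusted p = 0.00138). ATP5G3, a subunit of the mitochondrial ATP synthase, was lower by less than the limit (-0.61 ± 0.10, adjusted p = 0.0157), ATF2 measured -0.20 ± 0.14, and CHN1, a regulator of the GTPase Rac, was called lower (-1.10 ± 0.13, adjusted p = 0.00363). CHN1 stood at 85.6 and 91.9 CPM in HH24 replicates 1 and 3 and at 54.4 and 67.8 CPM in HH24g. On the other side MTX2 measured 0.31 ± 0.15, HNRNPA3 0.08 ± 0.17 and NFE2L2 0.58 ± 0.31, and AGPS was called higher (1.15 ± 0.25, adjusted p = 0.0473). HOXD1, HOXD9 and HOXD10 matched no transcript and were not analysed here. The calls of LNPK and HOXD8 were kept without any 1 library. That of CHN1 was lost without HH24g replicate 1, where its log2 fold change was -0.96, and that of AGPS without HH24 replicate 1 or 2, HH27 replicate 1 or 2, or either graft library (adjusted p up to 0.173).

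**Figure D3:**
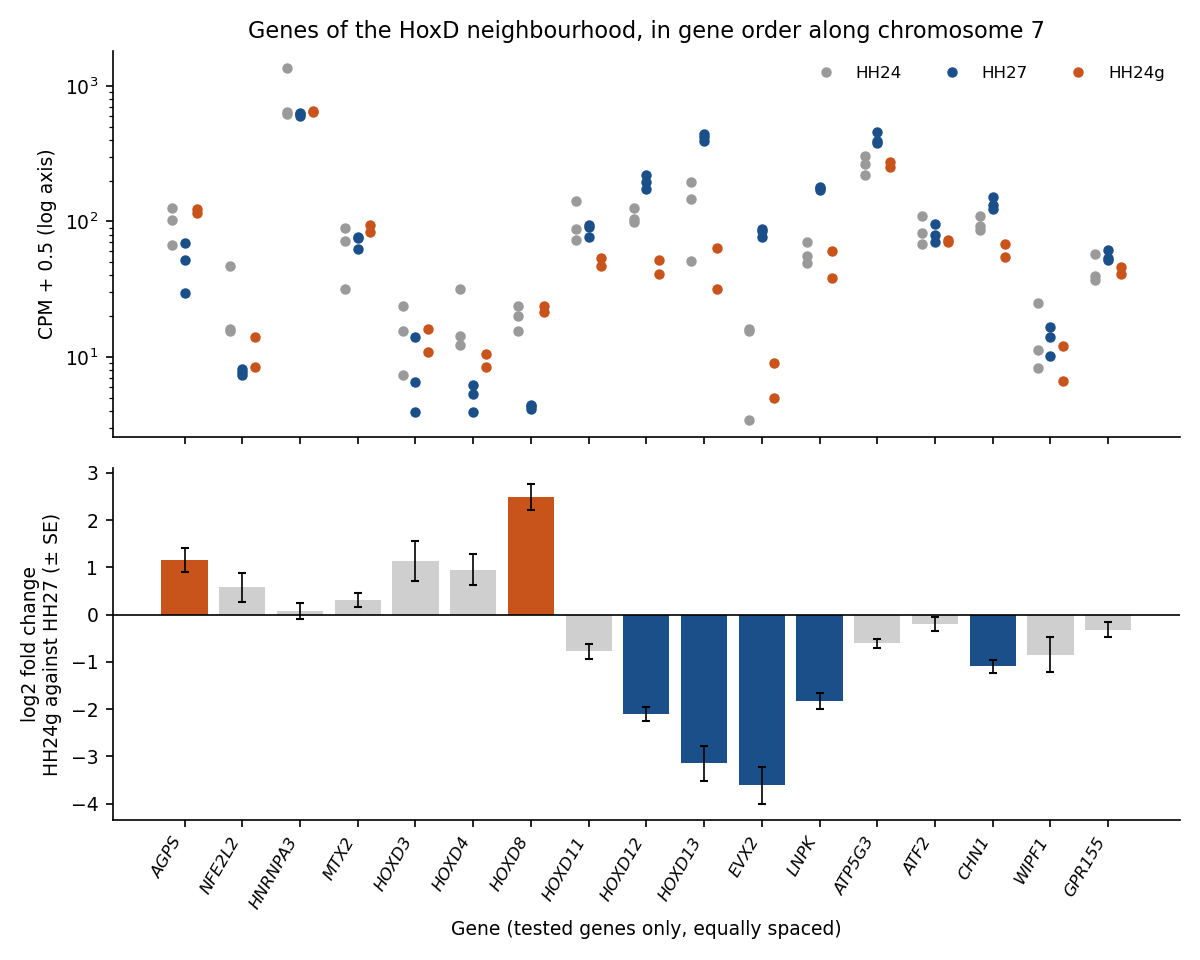
Tested genes around the HoxD cluster in gene order along chromosome 7, equally spaced. The upper panel gives CPM + 0.5 of each library on a log axis and the lower panel the log2 fold change of HH24g against HH27 with its SE (orange called higher, blue called lower, grey not called); values run from 2.49 at HOXD8 through -0.78 at HOXD11 to -3.61 at EVX2.

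The HoxA cluster showed no call at its 5′ end. HOXA9, HOXA10 and HOXA11, which act in the upper and lower wing, were not called at 0.47 ± 0.15, 0.67 ± 0.18 and 0.72 ± 0.19, and EVX1, the homeobox gene beyond HOXA13, measured -1.20 ± 0.28, adjusted p = 0.0584. None of the 4 tested genes of paralog groups 9 to 11 was called (median 0.57). HOXA7 was called lower, at 11.5, 15.5 and 11.9 CPM in HH27 and 4.49 and 4.58 CPM in HH24g (log2 fold change -1.39 ± 0.30, adjusted p = 0.0475). It lost the call whichever library was left out (adjusted p up to 0.302).

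Other transcription factors that were lower in the grafts belong to the AP2, T-box, Sox, Msx and Hand families. TFAP2B, an AP2 factor, measured 233, 314 and 256 CPM in HH27 and 22 and 38.5 CPM in HH24g (log2 fold change -3.07 ± 0.26, adjusted p = 0.00138). TFAP2C measured 148, 155 and 131 CPM in HH27 and 50.4 and 44.9 CPM in HH24g (log2 fold change -1.59 ± 0.15, adjusted p = 0.00168). It stood at 99.5 and 77.3 CPM in HH24 replicates 1 and 3, above both grafts. TFAP2A (-0.94 ± 0.28, adjusted p = 0.131) and TFAP2E (-0.77 ± 0.37, adjusted p = 0.343) were not called. Of 4 tested AP2 factors 2 were thus called, both lower (50% against 1.71% of all genes tested). SOX9, the regulator that starts cartilage, stood at 12.6, 11.7 and 20 CPM in HH27 and 2.99 and 3.36 CPM in HH24g (log2 fold change -2.23 ± 0.46, adjusted p = 0.0355). Grafts and HH27 did not overlap for any of these 3 called genes, which was required of TFAP2B and SOX9 as genes named for the size of their change. SOX9 had few reads and lost its call without HH24 replicate 1 or 2 (adjusted p up to 0.087). It also lost it without either graft library (log2 fold change -2.20 and -2.31). MSX2, a homeobox gene induced by Bmp signals, measured 110.0, 129 and 132 CPM in HH27 and 45.9 and 44 CPM in HH24g (log2 fold change -1.46 ± 0.14, adjusted p = 0.00181). HAND2, which acts upstream of SHH in the posterior limb, measured 101, 98.1 and 68.3 CPM in HH27 and 35.4 and 27.2 CPM in HH24g (log2 fold change -1.48 ± 0.27, adjusted p = 0.0225). In HH24 replicates 1 and 3 HAND2 measured 113 and 68.5 CPM, above both grafts. TFAP2B, TFAP2C and MSX2 kept their calls in all alternatives. HAND2 lost its call without HH27 replicate 1 or 2 or either graft library (adjusted p up to 0.202).

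The T-box gene TBXT, known for its part in mesoderm formation, measured 33, 41.8 and 41.8 CPM in HH27 and 8.98 and 10.7 CPM in HH24g (log2 fold change -1.92 ± 0.24, adjusted p = 0.00372), although none of the 4 tested members of the list of limb T-box genes was called. EGR1, an immediate early gene, was lower at -1.73, the only call among 8 tested immediate early and heat shock genes. HDAC9, a histone deacetylase, and SNAI1, a repressor of epithelial genes, were lower at -1.77 and -1.03. These 4 calls were lost without HH24g replicate 2 (adjusted p = 0.0575, 0.102, 0.0625 and 0.0852), and that of SNAI1 also without HH27 replicate 2, where its log2 fold change was -0.97.

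**Figure D4:**
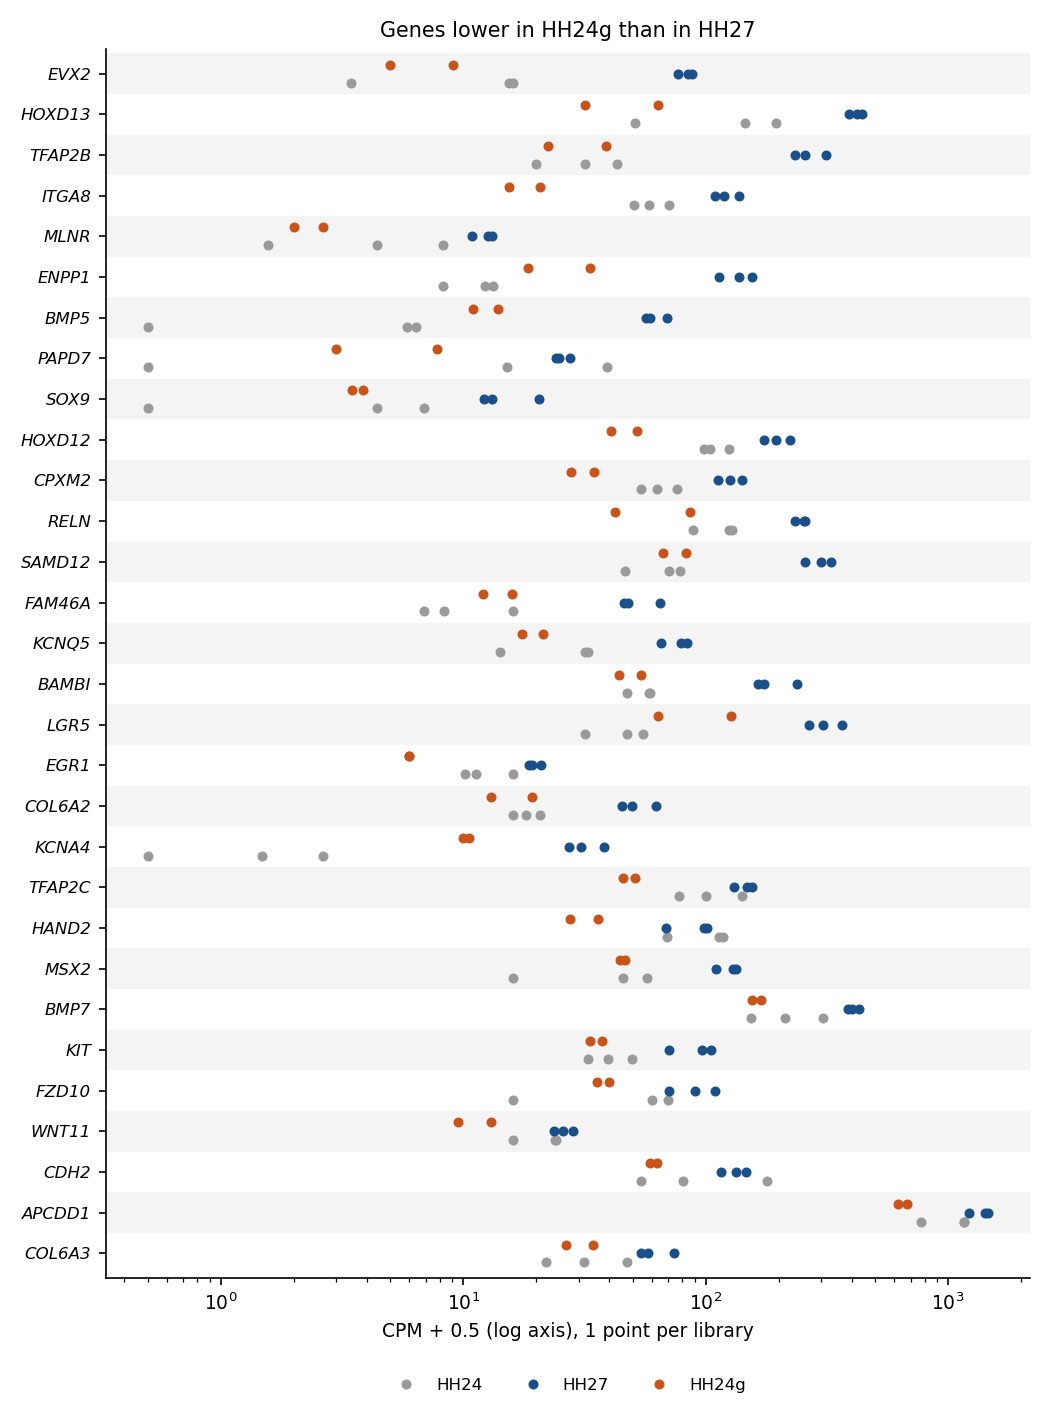
CPM + 0.5 on a log axis, 1 point per library, of the genes lower in HH24g that are named here by size or by the lists, ordered by log2 fold change from EVX2 at the top. Orange points (HH24g) lie left of all blue points (HH27) in every row. This held for 154 of the 155 called genes and was required of those named by size. Grey points are HH24, with replicate 2 at 0 reads for several low genes.

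Higher in the grafts stood another set of transcription factors, several of them known from loose connective tissue and tendon. MEOX2, a homeobox gene of the mesoderm, measured 39.9 and 60.5 CPM in HH24g and 3.07, 0.971 and 3.12 CPM in HH27 (log2 fold change 4.08 ± 0.52, adjusted p = 0.00474). EBF1, a helix-loop-helix factor, measured 31.4 and 24.1 CPM in HH24g and 2.30, 0.971 and 3.64 CPM in HH27 (log2 fold change 3.17 ± 0.48, adjusted p = 0.00968). SCX, the tendon factor scleraxis, measured 29.9 and 25.4 CPM in HH24g and 11.5, 7.77 and 5.45 CPM in HH27 (log2 fold change 1.84 ± 0.28, adjusted p = 0.0109). Both grafts were above all HH27 libraries in each case, which was required of MEOX2 and EBF1 as genes named for the size of their change. AFF3, a nuclear protein of a family of elongation factors, was at 18 and 30.2 CPM in HH24g and 1.53, 0 and 0.779 CPM in HH27 (log2 fold change 4.60 ± 0.94, adjusted p = 0.0356). In all, 4 of 13 tested mesenchymal and connective tissue factors were called, all higher (list median 0.66). None of these 4 was tested when at least 10 counts were required in every HH24g and HH27 library. Genes low in HH27 can pass the usual filter through the grafts, where they are high, so the count is not read as a result about the list. OSR2 (6.99 and 8.55 CPM in HH24g and 0.766, 0 and 0.519 CPM in HH27, 3.54 ± 0.83, adjusted p = 0.0605) and MKX (13.5 and 11 CPM in HH24g and 1.15, 0 and 4.16 CPM in HH27, 2.41 ± 0.64, adjusted p = 0.0914), both known from tendon and connective tissue, were not called. Both were low in HH27. Their libraries did not overlap between the groups, as was so for 32.7% of all genes tested. PRRX1, a marker of limb mesenchyme, and TWIST1 passed the adjusted p but not the fold limit, in opposite directions (0.66 ± 0.12, adjusted p = 0.0236, and -0.87 ± 0.10, adjusted p = 0.00314). In HH24 replicates 1 and 3 MEOX2 measured 1.07 and 2.93 CPM, EBF1 7.49 and 14.7 CPM, SCX 16 and 12.7 CPM and AFF3 5.35 and 6.85 CPM, all below both grafts. SCX kept its call without any 1 library, while MEOX2 lost it without HH27 replicate 3 (adjusted p = 0.0738), EBF1 without HH27 replicate 1 or 3 (0.0559 and 0.0897) and AFF3 without HH24 replicate 2, HH27 replicate 1 or HH27 replicate 3 (up to 0.205).

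Of the regulators of the distal limb other than Hox and AP2 genes, LHX9, GBX2 and SALL3 were higher in the grafts. LHX9, a LIM homeobox gene of the growing tip, measured 793 and 783 CPM in HH24g and 156, 56.3 and 254 CPM in HH27 (log2 fold change 2.34 ± 0.38, adjusted p = 0.0128), with a spread of more than 4-fold among the HH27 libraries. GBX2, a homeobox gene, measured 102 and 68.4 CPM in HH24g and 36, 30.1 and 30.4 CPM in HH27 (log2 fold change 1.33 ± 0.21, adjusted p = 0.0114). SALL3, a zinc finger factor, measured 43.9 and 45.8 CPM in HH24g and 21.1, 7.77 and 15.8 CPM in HH27 (log2 fold change 1.49 ± 0.25, adjusted p = 0.0157). These were 3 of 9 tested members (33.3%, against 1.71% of all genes tested), of which 6 lay above 0 and 3 below (median 0.83). SALL3 was not tested when at least 10 counts were required in every HH24g and HH27 library. The count is therefore not read as a result about the list. With edgeR the calls of LHX9 and SALL3 were lost (adjusted p = 0.0516 and 0.0718). SALL1 (0.88 ± 0.15, adjusted p = 0.0164) and SALL4 (0.83 ± 0.12, adjusted p = 0.007) were higher and LHX2, the close relative of LHX9, was lower (-0.83 ± 0.08, adjusted p = 0.00138), each by less than the fold limit. GBX2 was higher still in HH24 replicates 1 and 3, at 167 and 199.5 CPM, as was SALL3, at 88.8 and 70.4 CPM. LHX9 lost its call without either graft library (adjusted p = 0.0581 and 0.079), GBX2 without HH27 replicate 3 (0.0534), and SALL3 without HH27 replicate 3 or either graft library (up to 0.0934).

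Among the remaining factors, FLI1, an ETS factor of endothelium and mesenchyme, measured 183 and 184 CPM in HH24g and 76.6, 57.3 and 80.8 CPM in HH27 (log2 fold change 1.31 ± 0.12, adjusted p = 0.0016). NR2F2, a nuclear receptor of mesenchyme and veins, measured 31.9 and 34.5 CPM in HH24g and 8.43, 8.74 and 12.5 CPM in HH27 (log2 fold change 1.66 ± 0.22, adjusted p = 0.0058). PBX3, a partner of Hox proteins, measured 38.4 and 39.1 CPM in HH24g and 10.7, 22.3 and 13.5 CPM in HH27 (log2 fold change 1.53 ± 0.22, adjusted p = 0.00783). SKI, which blocks Smad transcription factors, stood at 73.4 and 63.9 CPM in HH24g and 20.7, 40.8 and 15.6 CPM in HH27 (log2 fold change 1.77 ± 0.26, adjusted p = 0.00929). BNC1, SSBP2 and MAML2, a coactivator of Notch, were higher at 1.27, 1.01 and 1.33. FLI1, NR2F2 and SKI were kept without any 1 library, but SKI was lost with edgeR (adjusted p = 0.138). PBX3 was lost with edgeR and DESeq2 (0.194 and 0.0578) and without HH24g replicate 2 (log2 fold change 1.52). BNC1 was lost without HH27 replicate 1 or HH24g replicate 2 (up to 0.116), MAML2 without HH27 replicate 1 or 3 (up to 0.072), and SSBP2 without HH27 replicate 1 or 2 (0.93 and 0.92 on the log2 scale) or HH24g replicate 2 (adjusted p = 0.0852).

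The Bmp ligands BMP5 and BMP7 were lower in the grafts. BMP5 measured 58.2, 68.9 and 56.4 CPM in HH27 and 10.5 and 13.4 CPM in HH24g (log2 fold change -2.25 ± 0.19, adjusted p = 0.00138). BMP7 measured 402, 428 and 386 CPM in HH27 and 155 and 169 CPM in HH24g (log2 fold change -1.30 ± 0.14, adjusted p = 0.0023). Thus 2 of 4 tested ligands were called, both of them lower (50% against 1.71% of all genes tested). Of 8 ligands listed 6 matched a transcript, and BMP2, which matched none, was not analysed here. BMP4, another ligand of limb mesenchyme, was tested and not called (-0.62 ± 0.19, adjusted p = 0.137). The pseudoreceptor BAMBI, which damps Bmp and related signals, was lower as well, at 173, 238 and 163 CPM in HH27 and 43.4 and 53.5 CPM in HH24g (log2 fold change -1.88 ± 0.18, adjusted p = 0.00168). GREM1, a secreted Bmp antagonist, was higher, at 15.5 and 16.2 CPM in HH24g and 6.13, 3.88 and 3.38 CPM in HH27 (log2 fold change 1.86 ± 0.29, adjusted p = 0.011). These were the only calls among 8 tested antagonists and pseudoreceptors, and SMOC1, a secreted protein known to antagonise Bmp signals in frog embryos, was called outside the list at 1.63. None of 5 tested Bmp receptors was called, and ACVR1 (listed in the gene table as ATVR1) fell under the fold limit (-0.83 ± 0.15, adjusted p = 0.021). Of 6 tested targets MSX2 alone was called, and the list's median was -0.40. The Bmp genes lower in the grafts, BMP5, BMP7, BAMBI and MSX2, kept their calls in all 17 alternatives. GREM1 lost its call without HH27 replicate 3 (adjusted p = 0.0853), with edgeR (0.212) and without HH24g replicate 2 (log2 fold change 1.83). SMOC1 lost its call without HH24g replicate 2, where its log2 fold change was 1.40.

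In the Wnt pathway 4 of 31 tested genes (12.9%) were called, all lower. Of all genes tested 1.71% were called, and 0.695% were called lower. LGR5, a receptor for R-spondins that strengthens Wnt signals, measured 266, 304 and 364 CPM in HH27 and 63.4 and 126 CPM in HH24g (log2 fold change -1.74 ± 0.26, adjusted p = 0.00896). APCDD1, a membrane inhibitor of Wnt, measured 1423, 1457 and 1222 CPM in HH27 and 674 and 623 CPM in HH24g (log2 fold change -1.06 ± 0.12, adjusted p = 0.00298). In HH24 replicates 1 and 3 APCDD1 measured 1159 and 1160 CPM, above both grafts. The receptor FZD10 measured -1.18 and the ligand WNT11 -1.17 on the log2 scale. WNT11 stood at 23.5 and 23.5 CPM in HH24 replicates 1 and 3 and at 8.98 and 12.5 CPM in HH24g. WNT5A, the ligand of the distal mesenchyme, did not pass (-0.95 ± 0.24, adjusted p = 0.0796). The list's median was -0.22. DACT1, a cytoplasmic modulator of Wnt that is not on the list, was higher, at 58.4 and 49.2 CPM in HH24g and 10.3, 6.80 and 15.1 CPM in HH27 (log2 fold change 2.12 ± 0.25, adjusted p = 0.00326). LGR5 kept its call in all alternatives and DACT1 without any 1 library. The call of APCDD1 was lost without HH24g replicate 2, where its log2 fold change was -0.99, FZD10 was lost without HH27 replicate 1 or either graft library (adjusted p up to 0.181), and WNT11 without HH27 replicate 1 or 2 or either graft library (up to 0.0997).

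The growth factors FGF18, HGF and PTN were higher in the grafts. FGF18, a ligand of mesenchyme and bone, measured 15 and 14.4 CPM in HH24g and 0.383, 1.94 and 1.30 CPM in HH27 (log2 fold change 3.72 ± 0.61, adjusted p = 0.0135) and was the only call among 9 tested Fgf ligands and receptors. It measured 33.2 and 23.5 CPM in HH24 replicates 1 and 3, above both grafts. HGF, which guides muscle precursors into the limb, measured 68.4 and 48.9 CPM in HH24g and 10.7, 6.80 and 4.16 CPM in HH27 (log2 fold change 3.14 ± 0.40, adjusted p = 0.00466) and 81.3 and 108 CPM in HH24. PTN, the heparin-binding factor pleiotrophin, measured 67.9 and 95.6 CPM in HH24g and 4.98, 18.5 and 16.9 CPM in HH27 (log2 fold change 2.84 ± 0.39, adjusted p = 0.00694) but only 2.14 and 4.89 CPM in HH24. In ungrafted HH24 tissue FGF18 and HGF were thus above both grafts and PTN was below both. None of 9 tested Fgf feedback genes was called: DUSP6, the standard readout of Fgf signalling, measured -0.26 ± 0.10, adjusted p = 0.228, and SPRY1 was lower by less than the fold limit (-0.85 ± 0.18, adjusted p = 0.0436). FGF8, made by the ridge, and FGF10, its mesenchymal partner, were not called (-1.29 ± 0.32, adjusted p = 0.0765, and -0.90 ± 0.25, adjusted p = 0.099). PTN kept its call in all alternatives, at 2.25 without HH27 replicate 1 and 3.55 without HH27 replicate 3, and HGF without any 1 library, at 2.51 without HH27 replicate 3. FGF18 lost its call without HH27 replicate 3 (adjusted p = 0.0942).

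Of 19 tested members of the list of other growth factors, chemokines and receptors, 5 were called higher and 1 lower. This was 31.6%, against 1.71% of all genes tested. HGF, CXCL12 and CXCR4 were not tested when at least 10 counts were required in every HH24g and HH27 library. The count is therefore not read as a result about the list. Besides HGF and PTN the higher genes included the chemokine CXCL12, at 16.5 and 19.9 CPM in HH24g and 5.75, 5.83 and 2.60 CPM in HH27 (log2 fold change 2.26 ± 0.36, adjusted p = 0.0123). Its receptor CXCR4 was at 16 and 11.6 CPM in HH24g and 4.98, 4.86 and 3.64 CPM in HH27 (log2 fold change 1.60 ± 0.31, adjusted p = 0.0266). PDGFC, a ligand of the Pdgf receptor alpha of mesenchyme, was at 108 and 84.3 CPM in HH24g and 53.6, 36.9 and 43.4 CPM in HH27 (log2 fold change 1.04 ± 0.16, adjusted p = 0.0115). The receptor tyrosine kinase KIT was lower (95.8, 105 and 69.9 CPM in HH27 and 36.9 and 33 CPM in HH24g, -1.29 ± 0.21, adjusted p = 0.0128), as was VEGFD, a factor of lymphatic vessels outside the list (-1.32 ± 0.19, adjusted p = 0.00774). VEGFD measured 304, 298 and 208 CPM in HH27 and 109 and 98.7 CPM in HH24g. In HH24 replicates 1 and 3 it measured 255 and 207 CPM, above both grafts. TGFB2 was higher (13 and 14.4 CPM in HH24g and 4.98, 6.80 and 5.97 CPM in HH27, 1.26 ± 0.25, adjusted p = 0.029) and with SKI made 2 of 15 tested genes of the Tgf-beta and activin list, while TGFB3 and TGFBI, a matrix protein named for its induction by this ligand family, were higher by less than the limit (0.58 and 0.66). SCUBE1, a secreted protein that also binds to the cell surface, measured 391 and 392 CPM in HH24g and 121, 53.4 and 138 CPM in HH27 (log2 fold change 1.85 ± 0.25, adjusted p = 0.0063). ANGPTL1, a secreted relative of angiopoietins, measured 72.4 and 62 CPM in HH24g and 10.3, 18.5 and 17.9 CPM in HH27 (log2 fold change 2.14 ± 0.22, adjusted p = 0.00218). SCUBE1 and ANGPTL1 kept their calls in all alternatives. CXCL12 lost its call without HH27 replicate 3 (log2 fold change 1.63) or HH24g replicate 2 (adjusted p up to 0.0852), VEGFD without HH24g replicate 2 (0.083), KIT without either graft library (up to 0.135), TGFB2 without any HH27 or graft library (up to 0.18), and CXCR4 without HH24 replicate 1 or 3, any HH27 library or HH24g replicate 1 (up to 0.15). PDGFC was at 0.98 without HH27 replicate 2 or 3 and at 0.88 without HH24g replicate 1. TGFB2 and CXCR4 were also lost with edgeR (adjusted p = 0.475 and 0.225) and DESeq2 (0.365 and 0.126), and CXCL12 with edgeR (0.113). TGFB2 stood at 1.07 and 3.91 CPM in HH24 replicates 1 and 3, below both grafts.

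Of 9 tested genes of the Shh pathway BOC and HAND2 were called, in opposite directions. BOC, a co-receptor for Shh, measured 198 and 200.1 CPM in HH24g and 70.9, 44.7 and 70.1 CPM in HH27 (log2 fold change 1.62 ± 0.16, adjusted p = 0.00178) and kept its call in all alternatives. The targets GLI1 and PTCH1 were not called (-1.12 ± 0.40, adjusted p = 0.196, and -0.62 ± 0.27, adjusted p = 0.289). DNER, a transmembrane ligand of Notch, measured 16.5 and 14.4 CPM in HH24g and 1.53, 0.971 and 1.82 CPM in HH27 (log2 fold change 3.08 ± 0.49, adjusted p = 0.0114) and was the only call among 9 tested Notch genes. JAG1, another ligand, was lower by less than the limit (-0.91 ± 0.17, adjusted p = 0.0219). DNER lost its call without HH27 replicate 1 or 3 (adjusted p = 0.0671 and 0.11).

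CRABP1, ALDH1A3 and STRA6, which handle retinoids, were higher in the grafts. CRABP1, which binds retinoic acid in the cytoplasm, measured 106 and 88.3 CPM in HH24g and 29.1, 9.71 and 23.1 CPM in HH27 (log2 fold change 2.09 ± 0.24, adjusted p = 0.00314), and 44.9 and 40.1 CPM in HH24. ALDH1A3, an enzyme that makes retinoic acid, measured 24.5 and 19.6 CPM in HH24g and 5.75, 9.71 and 10.9 CPM in HH27 (log2 fold change 1.29 ± 0.27, adjusted p = 0.0373). STRA6, a membrane receptor for retinol-binding protein, measured 25 and 18.6 CPM in HH24g and 10.7, 11.7 and 9.09 CPM in HH27 (log2 fold change 1.05 ± 0.22, adjusted p = 0.0425). With PBX3 these were 4 of 12 tested genes of proximal identity and retinoic acid, all higher (33.3% against 1.71% of all genes tested). The list's median was nevertheless -0.15, and 7 of the 12 lay below 0. Only CRABP1 kept its call in all alternatives. STRA6 lost its call whichever library was left out (adjusted p up to 0.155), and ALDH1A3 without any 1 library other than HH27 replicate 3 (up to 0.126).

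**Figure D5:**
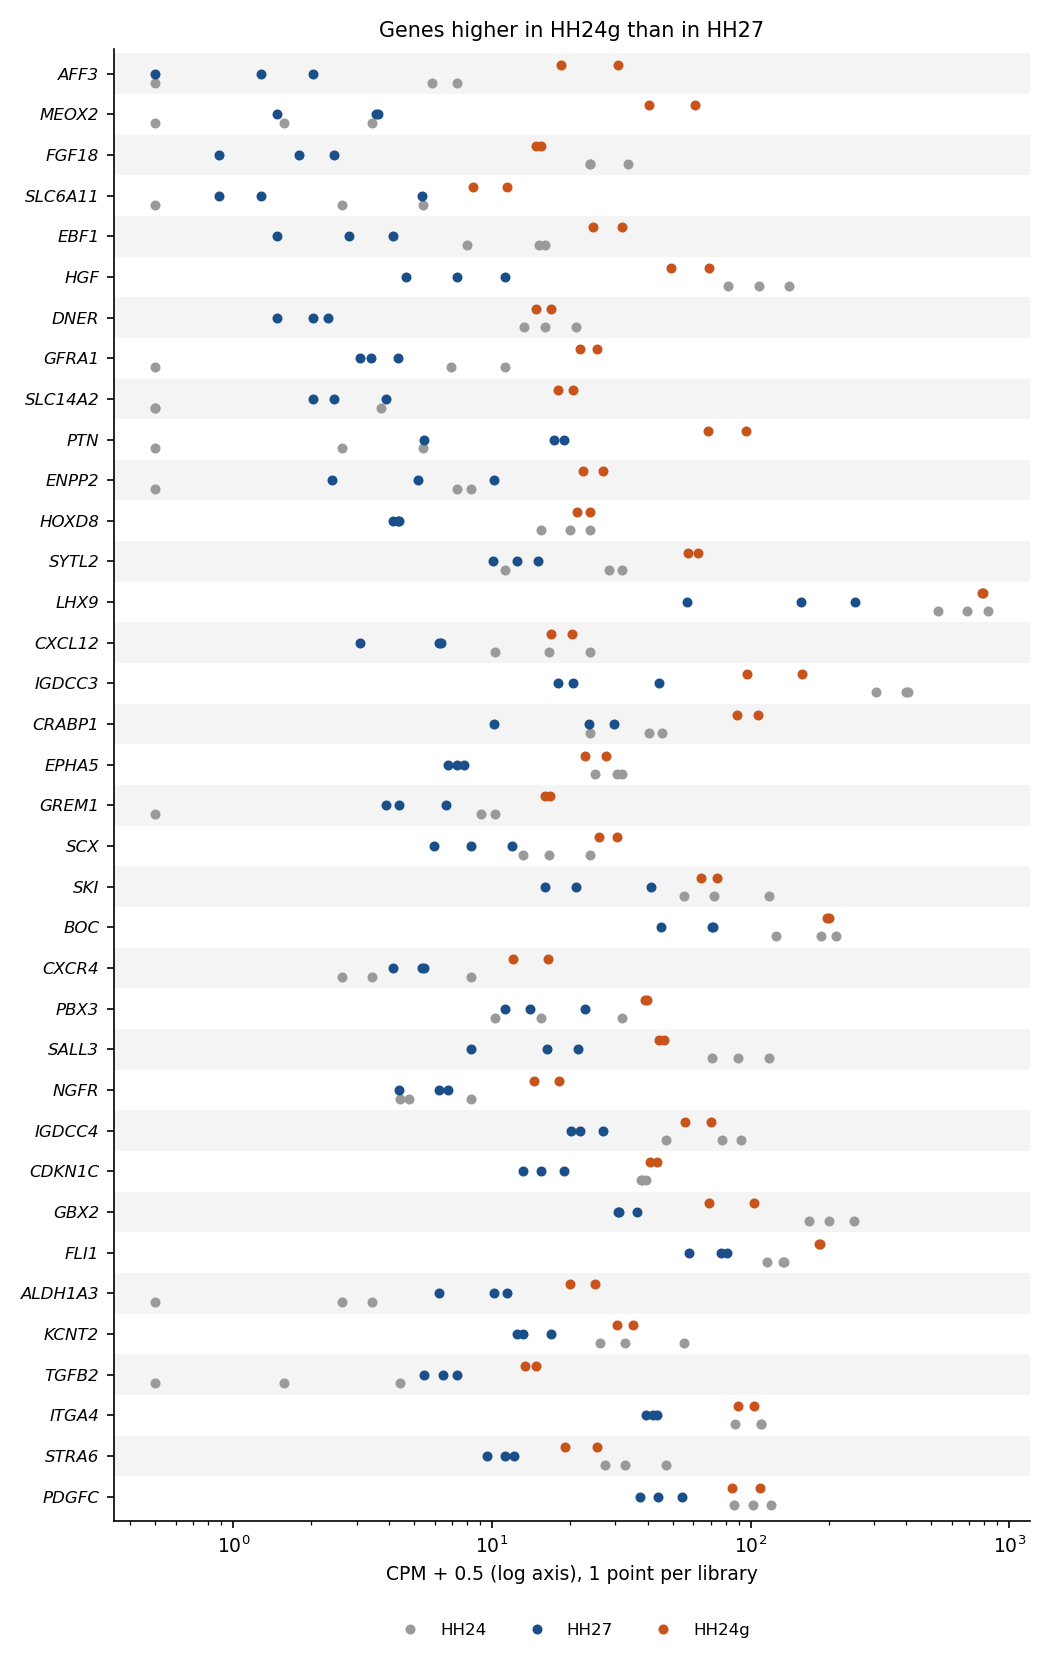
CPM + 0.5 on a log axis, 1 point per library, of the genes higher in HH24g that are named here by size or by the lists, ordered by log2 fold change from AFF3 at the top. Orange points (HH24g) lie right of all blue points (HH27) in every row. This held for 154 of the 155 called genes and was required of those named by size. Grey points (HH24) lie near or beyond the grafts for GBX2, IGDCC3 and HGF, and near HH27 for MEOX2, PTN and NGFR.

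Adhesion molecules changed in both directions. ITGA8, an integrin chain that pairs with beta 1 and binds nephronectin, measured 137, 109 and 118 CPM in HH27 and 15 and 20.2 CPM in HH24g (log2 fold change -2.75 ± 0.19, adjusted p = 0.00138). It stood at 50.3 and 57.7 CPM in HH24 replicates 1 and 3, above both grafts and below all HH27 libraries. ITGA4, a chain of the receptor for VCAM1 and fibronectin, measured 103 and 88.9 CPM in HH24g and 41.4, 38.8 and 43.1 CPM in HH27 (log2 fold change 1.18 ± 0.13, adjusted p = 0.00263). Both kept their calls in all alternatives, and they were the only calls among 12 tested integrins. Of 9 tested cadherins and other adhesion molecules on another list, CDH2 was called lower and IGDCC3 and IGDCC4 higher. CDH2, N-cadherin, which holds condensing mesenchyme together, measured 115, 147 and 133 CPM in HH27 and 58.4 and 62.6 CPM in HH24g (log2 fold change -1.09 ± 0.20, adjusted p = 0.0225). IGDCC3, an immunoglobulin protein of the surface, was higher, at 158 and 96.5 CPM in HH24g and 43.7, 17.5 and 20 CPM in HH27 (log2 fold change 2.19 ± 0.35, adjusted p = 0.0123). IGDCC4, its relative, was at 69.9 and 55.3 CPM in HH24g and 26.4, 21.4 and 19.7 CPM in HH27 (log2 fold change 1.45 ± 0.19, adjusted p = 0.00479). PRTG, of the same family, was higher too, at 1.16. IGDCC3 measured 399 and 304 CPM in HH24 replicates 1 and 3, above both grafts. BSG, a surface protein of the immunoglobulin family, was lower, at 562, 653 and 534 CPM in HH27 and 227 and 241 CPM in HH24g (log2 fold change -1.28 ± 0.11, adjusted p = 0.00138). BSG and IGDCC4 kept their calls in all alternatives, IGDCC3 lost it without HH27 replicate 3 (adjusted p = 0.0664), PRTG without either graft library (up to 0.083) and CDH2 without HH27 replicate 2 or 3 or either graft library (up to 0.144). The protocadherins PCDH17 and PCDH8, which adjoin each other among the tested genes of chromosome 1, were called in opposite directions (-1.84 and 2.01). PCDH17 lost its call without either graft library (up to 0.119), and PCDH8 without any 1 library other than HH27 replicate 2 (up to 0.152), with 2.63 on the log2 scale without HH27 replicate 3.

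Of 26 tested collagens and matrix proteins 2 (7.69%) were called, both lower, and the list's median was 0.02. These were chains of collagen VI, a filament of connective tissue: COL6A2 measured 49.1, 44.7 and 61.8 CPM in HH27 and 12.5 and 18.6 CPM in HH24g (log2 fold change -1.72 ± 0.23, adjusted p = 0.00532). COL6A3 measured 57.1, 73.8 and 53.5 CPM in HH27 and 33.9 and 26 CPM in HH24g (log2 fold change -1.003 ± 0.19, adjusted p = 0.0253). The third chain, COL6A1, was at 21.5, 31.1 and 38.2 CPM in HH27 and 12 and 3.36 CPM in HH24g and not called (-2.41 ± 0.62, adjusted p = 0.0808). COL12A1 was higher and FN1 and LUM were lower, each by less than the fold limit (0.56, -0.45 and -0.62). Outside the list, RELN, a large secreted protein known from neuronal migration, was lower, at 253, 257 and 232 CPM in HH27 and 41.9 and 85.5 CPM in HH24g (log2 fold change -1.95 ± 0.24, adjusted p = 0.00396), as was CPXM2, a secreted relative of carboxypeptidases (125, 141 and 112 CPM in HH27 and 27.5 and 34.2 CPM in HH24g, -1.96 ± 0.17, adjusted p = 0.00138). FRAS1, a protein of epithelial basement membranes, was higher, at 359 and 353 CPM in HH24g and 149.8, 124 and 172 CPM in HH27 (log2 fold change 1.22 ± 0.11, adjusted p = 0.00138), as were MXRA5, a matrix protein (1.24 ± 0.11, adjusted p = 0.00138), and FAP, a protease of activated fibroblasts (1.14 ± 0.14, adjusted p = 0.00366). In HH24 replicates 1 and 3 MXRA5 measured 30.0 and 35.2 CPM and FAP 22.5 and 20.5 CPM, below both grafts. CPXM2 measured 76.0 and 53.8 CPM in the same libraries, above both grafts. RELN, CPXM2, COL6A2, FRAS1, MXRA5 and FAP kept their calls in all alternatives, RELN with -2.54 without HH24g replicate 2. COL6A3 lay at the fold limit and was lost without HH24 replicate 2, HH27 replicate 1 or 2, or either graft library (log2 fold change -0.77 without HH24g replicate 2).

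SOX9 was the only call among 8 tested genes of the cartilage programme, and the list's median, 0.44, had the opposite sign. LECT1, which encodes the cartilage protein chondromodulin, was higher by less than the fold limit, at 189 and 171 CPM in HH24g and 97.7, 91.3 and 115 CPM in HH27 (0.79 ± 0.12, adjusted p = 0.00896). Of 4 tested genes of the bone list, 1 was called. ENPP1, which makes pyrophosphate, an inhibitor of mineralisation, was lower, at 113, 137 and 155 CPM in HH27 and 18 and 33 CPM in HH24g (log2 fold change -2.36 ± 0.25, adjusted p = 0.00228), and it kept its call in all alternatives. SPP1, osteopontin, was at 12 and 7.64 CPM in HH24g and 1.15, 1.94 and 1.56 CPM in HH27 and not called (2.51 ± 0.56, adjusted p = 0.0516). ENPP2, autotaxin, which makes lysophosphatidic acid, belongs to the same enzyme family and was higher, at 26.5 and 22 CPM in HH24g and 1.92, 9.71 and 4.68 CPM in HH27 (log2 fold change 2.64 ± 0.46, adjusted p = 0.0171). It lost its call without HH27 replicate 2 or 3 (adjusted p = 0.0532 and 0.0516) or either graft library (log2 fold change 2.52 and 2.80). With edgeR and DESeq2 its adjusted p was 0.352 and 0.168.

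The receptors GFRA1, NGFR and EPHA5, known from nerve growth, were higher in the grafts. GFRA1, a co-receptor for Gdnf, measured 25 and 21.4 CPM in HH24g and 3.83, 2.91 and 2.60 CPM in HH27 (log2 fold change 2.85 ± 0.31, adjusted p = 0.00263). NGFR, the low affinity neurotrophin receptor, measured 14 and 17.7 CPM in HH24g and 5.75, 3.88 and 6.23 CPM in HH27 (log2 fold change 1.46 ± 0.26, adjusted p = 0.0174). GFRA1 and NGFR were the only calls among 20 tested guidance cues and neurotrophin receptors (median 0.10). Neither was tested when at least 10 counts were required in every HH24g and HH27 library. SLITRK6 and SORCS3, receptors of neurons outside the list, were called lower, at -1.19 ± 0.17, adjusted p = 0.00874, and -1.19 ± 0.14, adjusted p = 0.00365. SLITRK6 was at -0.92 without HH24g replicate 1, and SORCS3 lost its call without HH24g replicate 2 (adjusted p = 0.0559). EPHA5 was higher at 22.5 and 27.2 CPM in HH24g and 7.28, 6.80 and 6.23 CPM in HH27 (log2 fold change 1.89 ± 0.22, adjusted p = 0.00314), the only call among 12 Eph receptors and ephrins, while EFNB1 was lower by less than the limit (-0.92 ± 0.07, adjusted p = 0.00138). GFRA1 and EPHA5 were kept without any 1 library, and NGFR was lost without HH27 replicate 1 or 3 or HH24g replicate 2 (adjusted p up to 0.134). Markers of nerve, glia and melanoblasts were not called (0 of 3 tested) and their summed level overlapped, at 46.0 to 85.5 CPM in HH27 and 52.4 to 65.4 CPM in HH24g.

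Of 25 tested potassium channels 3 (12%) were called, against 1.71% of all genes tested. KCNQ5, a voltage-gated channel, was lower, at 78.9, 83.5 and 65.2 CPM in HH27 and 17 and 20.8 CPM in HH24g (log2 fold change -1.92 ± 0.24, adjusted p = 0.0043). KCNA4, another, was at 37.6, 30.1 and 26.8 CPM in HH27 and 9.48 and 10.1 CPM in HH24g (log2 fold change -1.63 ± 0.25, adjusted p = 0.0109). KCNT2, a sodium-activated channel, was higher at 1.27. Of 144 tested solute carriers 2 were called, 1.39% against 1.71% of all genes. SLC6A11, a carrier of GABA, measured 11 and 7.94 CPM in HH24g and 0.383, 4.86 and 0.779 CPM in HH27 (log2 fold change 3.26 ± 0.64, adjusted p = 0.0299). SLC14A2, a carrier of urea, measured 17.5 and 20.2 CPM in HH24g and 1.53, 1.94 and 3.38 CPM in HH27 (log2 fold change 2.84 ± 0.43, adjusted p = 0.0106). All 5 lost their call without HH24g replicate 2 (adjusted p = 0.0568, 0.12, 0.0949, 0.0597 and 0.0538). KCNA4 was also lost without HH24g replicate 1, and KCNT2 and SLC14A2 without HH27 replicate 3. SLC6A11 passed neither the test without HH24 replicate 2 or HH27 replicate 2, nor the filter without HH27 replicate 1, HH27 replicate 3 or HH24g replicate 1. With edgeR and DESeq2 its adjusted p was 0.396 and 0.386.

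The inhibitor CDKN1C, which stops cells before they copy their DNA, was higher in the grafts, at 40.4 and 42.8 CPM in HH24g and 14.9, 12.6 and 18.4 CPM in HH27 (log2 fold change 1.35 ± 0.16, adjusted p = 0.00314), and kept its call in all alternatives. It was the only call among 13 tested G1 cyclins and inhibitors. CCND1 and CDK6, which drive cells out of G1, were lower by less than the fold limit (-0.57 ± 0.08, adjusted p = 0.00692, and -0.63 ± 0.10, adjusted p = 0.0101). None of 19 genes of DNA replication and mitosis was called (median -0.11, 17 of 19 below 0). The same held for 69 cytosolic ribosomal proteins (median -0.11), 66 nuclear genes of oxidative phosphorylation (median 0.01) and 14 genes of glycolysis and hypoxia (median 0.04), against 1.71% called over all genes.

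Several called genes of other function were among the largest changes. PAPD7 and FAM46A, both noncanonical poly(A) polymerases, were lower. PAPD7 measured 27.2, 24.3 and 23.6 CPM in HH27 and 2.50 and 7.33 CPM in HH24g (log2 fold change -2.25 ± 0.48, adjusted p = 0.0448). FAM46A measured 45.6, 64.1 and 47.5 CPM in HH27 and 15.5 and 11.6 CPM in HH24g (log2 fold change -1.92 ± 0.22, adjusted p = 0.00314). SAMD12, of no role given here, measured 299.7, 329 and 257 CPM in HH27 and 66.4 and 82.2 CPM in HH24g (log2 fold change -1.93 ± 0.17, adjusted p = 0.00138). MLNR, the receptor of motilin, was at 10.3, 12.6 and 12.2 CPM in HH27 and 1.50 and 2.14 CPM in HH24g (log2 fold change -2.50 ± 0.55, adjusted p = 0.0494). SYTL2, which tethers secretory vesicles through Rab27, was higher, at 56.9 and 62 CPM in HH24g and 9.58, 14.6 and 11.9 CPM in HH27 (log2 fold change 2.37 ± 0.25, adjusted p = 0.0023). SAMD12 and SYTL2 kept their calls in all alternatives, and FAM46A lost its call without HH24g replicate 2 (adjusted p = 0.0589). PAPD7 was lost without HH24 replicate 2 or any HH27 or graft library (up to 0.24), with log2 fold changes of -1.75 without HH24g replicate 1 and -3.20 without HH24g replicate 2, and MLNR without any 1 library other than HH24 replicate 1 (up to 0.308).

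Enzymes, kinases and regulators of membrane traffic made up much of the remainder. RAB3IP, an exchange factor of Rab8 in cilium formation, measured 156, 178 and 192 CPM in HH27 and 54.4 and 61.1 CPM in HH24g (log2 fold change -1.59 ± 0.13, adjusted p = 0.00138). PTCHD1, a membrane protein related to the Shh receptor, was at 111, 123 and 99.2 CPM in HH27 and 37.4 and 48.6 CPM in HH24g (log2 fold change -1.31 ± 0.15, adjusted p = 0.00291). LRIG3, of a family that modulates receptor tyrosine kinases, measured 202 and 214 CPM in HH24g and 91.6, 76.7 and 96.9 CPM in HH27 (log2 fold change 1.20 ± 0.12, adjusted p = 0.00168). LRIG3 measured 102 and 110 CPM in HH24 replicates 1 and 3, below both grafts. The HH27 and HH24g libraries did not overlap for any of these 3 genes, as was so for 32.7% of all genes tested. The 3 calls were kept in all alternatives. Also kept in all were the higher genes ATP9A, of a family of lipid flippases (87.3 and 92.9 CPM in HH24g and 23.8, 25.2 and 36.4 CPM in HH27, 1.61 ± 0.19, adjusted p = 0.00363), CLMN, an actin-binding membrane protein (169 and 152 CPM in HH24g and 39.9, 74.8 and 45.7 CPM in HH27, 1.75 ± 0.17, adjusted p = 0.00178), PDZRN3, a ubiquitin ligase (34.4 and 38.8 CPM in HH24g and 11.5, 11.7 and 11.2 CPM in HH27, 1.69 ± 0.16, adjusted p = 0.00168), and PRSS12, a protease that cleaves agrin (41.9 and 39.1 CPM in HH24g and 11.5, 19.4 and 11.9 CPM in HH27, 1.66 ± 0.18, adjusted p = 0.00278). ARL8BL, C9ORF58 and EFCC1, given here without a role, were likewise kept, at 1.73, 2.27 and 1.64, and among lower genes the uncharacterised LOC107053124, at 64.8, 69.9 and 72.5 CPM in HH27 and 6.99 and 15 CPM in HH24g (log2 fold change -2.60 ± 0.29, adjusted p = 0.00291; -3.26 without HH24g replicate 2).

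CD24, a small glycoprotein of the cell surface, measured 139 and 126 CPM in HH24g and 48.3, 48.6 and 41.8 CPM in HH27 (log2 fold change 1.54 ± 0.22, adjusted p = 0.00748). ITGBL1, a secreted protein with repeats like those of integrin beta chains, was at 37.9 and 27.2 CPM in HH24g and 11.5, 8.74 and 10.9 CPM in HH27 (log2 fold change 1.51 ± 0.22, adjusted p = 0.00783). DCLK1, a microtubule-associated kinase, measured 232 and 265 CPM in HH24g and 63.2, 38.8 and 106 CPM in HH27 (log2 fold change 1.77 ± 0.27, adjusted p = 0.0108), with HH27 libraries that differed from each other more than the grafts did. CD24 and ITGBL1 kept their calls without any 1 library, but CD24 lost its call with edgeR (adjusted p = 0.091). DCLK1 lost its call without HH24g replicate 2 (log2 fold change 1.68). Lower in the grafts were RGCC, a regulator of the cell cycle (26.8, 30.1 and 30.4 CPM in HH27 and 6.99 and 8.55 CPM in HH24g, -1.85 ± 0.25, adjusted p = 0.00649), GRK5, a kinase that desensitises G protein-coupled receptors (102, 106 and 71.9 CPM in HH27 and 38.4 and 35.1 CPM in HH24g, -1.27 ± 0.20, adjusted p = 0.0108), and EHHADH, an enzyme of fatty acid oxidation in peroxisomes (50.6, 40.8 and 44.4 CPM in HH27 and 15 and 13.7 CPM in HH24g, -1.68 ± 0.19, adjusted p = 0.00291). TRIL, a partner of Toll-like receptors, was lower at 527, 498 and 517 CPM in HH27 and 265 and 230.0 CPM in HH24g (log2 fold change -1.07 ± 0.12, adjusted p = 0.00314). In HH24 replicates 1 and 3 TRIL measured 603 and 428 CPM and GRK5 86.7 and 79.2 CPM, above both grafts. RGCC and EHHADH lost their calls without HH24g replicate 2 (adjusted p = 0.0742 and 0.0557), GRK5 without either graft library (up to 0.109), and TRIL without HH24g replicate 2, where its log2 fold change was -0.96. The other RNA processing genes that were called, PTBP3 and R3HDM4, stood near the fold limit (-1.001 and -1.13), and R3HDM4 lost its call whichever library was left out.

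Markers of other cell types were read beside these results. In bulk tissue fewer cells of a type and less RNA per cell cannot be told apart. All 8 markers of limb mesenchyme, the labelled cell type, passed the filter, and their sum was 866 to 1163 CPM in HH27 and 1715 CPM in both grafts, with LHX9 the only call. Without LHX9 the 7 others summed to 810 to 932 CPM in HH27 and 922 to 933 CPM in HH24g. Endothelial markers (12 of 14 matched, none at 0) summed to 293 to 301 CPM in HH27 and 457 to 465 CPM in HH24g. FLI1 was the only called member of 9 tested, and without it the sums were 212 to 238 CPM and 274 to 280 CPM. Leukocyte markers summed to 35.9 to 42.5 CPM in HH27 and 55.3 to 55.4 CPM in HH24g, with none of 4 tested called. Their part in the rise of FLI1, CXCR4 and the other higher genes was not tested. Ectoderm and ridge markers (0 of 6 called) summed to 212 to 238 CPM in HH27 and 185 to 212 CPM in HH24g, and erythroid markers (0 of 5 called) overlapped, at 447 to 2270 CPM and 741 to 1404 CPM. The 6 matched myogenic markers had 0 to 5 reads in all per library, with MYOG and MYF6 at 0.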

How the data were processed

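RNA sequencing libraries of chick distal wing tissue were grouped by their titles. The deposited tables, 1 per library, list transcripts with the estimated counts that the authors obtained by sharing reads out among similar transcripts, and with TPM values, which the authors derived from these counts and effective transcript lengths and which were not used for tests. Per the submitters' processing notes the tools were HISAT2 2.0.2, Salmon and limma, and the build galGal4; how they were combined is not given in the sources used here. Total RNA libraries were stranded and depleted of ribosomal RNA. The study excluded 1 HH24 and 1 HH24g library after quality control. The HH24 library meant is not identified in the labels, so all 3 were used. In HH24 replicate 2 a few transcripts took 94.4% of the reads, against 54.0% and 40.8% in replicates 1 and 3. Only 9.24% of its reads matched genes, against 45.5% and 53.3%. Without this library 22 of the calls were lost.

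RefSeq accessions without version were matched to the gene table of GRCg7b, used for names and gene order: 26660 of 57399 transcripts (46.4%) matched 14612 genes, and 51.9% to 67.6% of the reads of HH27 and HH24g. Unmatched transcripts stayed out of library sizes. A gene with unmatched transcripts is counted in part. Estimated counts were summed per gene and rounded. Genes were kept by filterByExpr (minimum count 10, minimum total 15), scaled by TMM, and fitted with limma 3.58.1 voom (edgeR 4.0.16, DESeq2 1.42.0, R 4.3.3, Python 3.11.15, pandas 2.3.3 and matplotlib 3.10.9), with 1 mean per group and all 8 libraries. Adjusted p-values are Benjamini-Hochberg over 9062 genes. The code was tested on simulated data. With log2 changes of 1.5, 2 and 3 set in 67, 67 and 66 genes, it recovered 77.6%, 86.6% and 95.5% of them. It also made 16 false calls. CPM has no correction for gene length, so levels were not compared between genes.

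The text names 15 called genes from either end of the ranking by log2 fold change (a gene symbol, at least 1 CPM in the higher group, no overlap between libraries), called members of 40 gene lists, and uncalled members by values; other called genes, the neighbours of HoxD and the grouping by function were chosen after their values were seen. Some called genes are not reported here by name. The lists and the comparison itself were chosen with earlier results of these data known. Replicates are libraries of pooled tissue. Each p-value sets the difference between groups against the spread of these libraries within all groups, HH24 included, moderated over genes.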

Additional observations from a re-analysis of the deposited data

Results flagged for a closer look

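Transcripts that matched no gene, and so entered no comparison above, were also compared between the groups. When they were added to the fit as features of their own, 8558 passed the filter (CPM in this paragraph is therefore per 1000000 reads of matched and unmatched transcripts together), and limma called 22 of them higher in the grafts and 8 lower. In the same fit 107 of 9345 genes were called, so unmatched transcripts were called less often than genes. Of the 22, 6 had 0 reads in all HH27 libraries and 27 to 123 reads in each graft library (5.81 to 23.2 CPM), and 5 of these 6 also had 0 reads in all HH24 libraries. These 5 passed the filter only through the grafts, where they were high, so their being higher is not read as a result. The most increased were XM_015283762.1, with 98 and 123 reads in the grafts (23.2 and 17.9 CPM) and 0 in all 6 other libraries, and XM_015277123.1, with 42 and 69 reads in the grafts and 0 in the others (adjusted p = 0.0399 and 0.035). The most decreased were XR_212626.2, at 37.2, 42.8 and 38.6 CPM in HH27 and 2.37 and 5.38 CPM in HH24g (log2 fold change -3.26, adjusted p = 0.0106), and XM_015275632.1, at 20.3, 31.6 and 18.1 CPM in HH27 and 5.92 and 5.81 CPM in HH24g (-1.80, adjusted p = 0.04997). The files and the gene table give these transcripts no gene name, and their identity was not tested.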

How the results depend on the processing

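The 155 calls (92 higher, 63 lower) became 98 (50 and 48) with edgeR's quasi-likelihood test, 154 (76 and 78) with DESeq2, 107 (63 and 44) on the 5 HH24g and HH27 libraries alone, and 108 (58 and 50) with at least 10 counts in every one of these libraries. Without a fold limit there were 288 calls (162 and 126). The share of higher genes was 59.4%, and 49.4% with DESeq2, 51% with edgeR, 50.3% without HH27 replicate 3, 67.2% without HH24g replicate 1 and 69.1% without HH24g replicate 2. Leaving out 1 library gave 94 to 149 calls, 65 to 85 higher and 29 to 71 lower. The causes were not tested. The replicate number as a block gave 163 calls (95 and 68). Deviations of same-numbered HH27 and HH24g libraries from their group means correlated at 0.01 and -0.02. The deviations of the 2 graft libraries mirror each other, so this cannot show whether the numbers pair the samples. No called gene changed direction in any alternative, and among the other genes given with values HNRNPA3 alone did, at -0.016 with the replicate block. Of the 155 calls, 36 were kept in under 50% of the 17 alternatives. Adding unmatched transcripts left 107 genes called (65 and 42), and other scaling or no filter on low counts gave 156 and 137. SE among called genes ran from 0.11 to 0.94.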

Other observations

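Called genes also stood side by side elsewhere in the gene order of RefSeq, a pattern noticed in the data and given without a test. Among tested genes 9 adjacent pairs were both called, 8 of them in the same direction. These counts include the pairs near HoxD already described: HOXD12 with HOXD13, HOXD13 with EVX2, and EVX2 with LNPK. On chromosome 10 PARP16, an enzyme of the endoplasmic reticulum, IGDCC3 and IGDCC4 follow each other and were all higher in the grafts (1.52, 2.19 and 1.45), while their flanking tested genes MTFMT and DPP8 were not called. PARP16 measured 55.9 and 43.7 CPM in HH24g and 15.7, 16.5 and 17.7 CPM in HH27. On chromosome 20 BMP7 and TFAP2C were both lower (-1.30 and -1.59). On chromosome 1 CEP83, a protein of the base of cilia, and TMCC3 were both called higher (1.12 and 1.61). CEP83 lost its call without HH24 replicate 1 or 2, HH27 replicate 1 or 3 or either graft library (adjusted p up to 0.155) and with edgeR and DESeq2 (adjusted p = 0.304 and 0.175), and TMCC3 lost it with edgeR (0.13) and was not tested with at least 10 counts in every HH24g and HH27 library.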
